A study of Homo sapiens with 6 samples.

Results

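Aminoacyl-tRNA synthetases are the enzymes that attach each amino acid to its transfer RNA. The genes described here were selected by symbol alone: 20 synthetases or synthetase subunits of the cytosol, 17 of the mitochondrion, and the 3 scaffold proteins AIMP1, AIMP2 and EEF1E1, 40 genes in all. Of these, 38 had a row among the 21429 genes of the deposited table (19 cytosolic, 16 mitochondrial and 3 scaffold), and VARS1 and VARS2, the valine enzymes, were not analysed here.

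Most amino acids have a cytosolic synthetase, which charges tRNA for ribosomes in the cytosol, and a separate nuclear-encoded enzyme that is imported into mitochondria, by convention given the suffix 2. GARS1 and KARS1 supply both compartments from a single gene, EPRS1 carries glutamate and proline activities in 1 polypeptide, and phenylalanine needs the subunits FARSA and FARSB. Several cytosolic enzymes are held with AIMP1, AIMP2 and EEF1E1 in a multi-synthetase complex. Uncharged tRNA is sensed by the kinase GCN2, encoded by EIF2AK4. Phosphorylation of eIF2 raises translation of ATF4, a transcription factor that binds C/EBP-ATF response elements in many genes of amino acid supply, a number of cytosolic synthetases among them.

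RNA was sequenced from U251, an established human glioma line, that stably carried doxycycline-inducible mutant amyloid precursor protein (APP, K670N/M671L), in both groups. Cells were electroporated with control siRNA (siNC, 3 libraries) or siRNA against RPL13, a large-subunit ribosomal protein gene (siRPL13, 3 libraries), as 2.5 µL of a 20 µM stock. Doxycycline at 1 µg/mL came with fresh medium at 24 h and RNA was taken at 72 h. The labels call the libraries biological triplicates of 1 line and do not say whether it is a clone. Expression was read as regularized-log (rlog) values, a log2 scale, and read depth is unknown. Wherever 3 values of a group follow each other, they are those of replicates 1, 2 and 3. The glial and glioma markers VIM, CD44, GFAP and NES averaged between 14.4 and 16.1, S100B averaged 5.64, and AQP4 was not analysed here.

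RPL13 was at 14.05, 14.16 and 14.18 in siNC and at 13.03, 13.12 and 14.09 in siRPL13, so the library labelled siRPL13 replicate 3 lay inside the siNC range. Over the 15327 genes tested that library had a Pearson correlation of 0.99908 with siNC replicate 2 and of 0.99565 and 0.99646 with siRPL13 replicates 1 and 2. Counts and medians of the cytosolic and mitochondrial synthetases are therefore given for all 6 libraries and for the 5 libraries without it. That choice was made with earlier results of these data known, the RPL13 levels among them. Differences of single genes, and results of the other lists, are those of the 5-library comparison unless all 6 libraries are named. The 5-library comparison rests on 2 siRPL13 libraries. Fits used limma, with p-values adjusted by Benjamini-Hochberg across every gene tested. "Rose" and "fell" mean an adjusted p under 0.05 in the 5-library comparison.

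With all 6 libraries, 0 of the 38 members passed the limma test in either direction, as did 0 of all genes (0%). At an unadjusted p under 0.05, 4 cytosolic synthetases were lower (GARS1, SARS1, TARS1 and MARS1), 1 was higher (FARSA), and 0 mitochondrial ones were either, where 4.40% of all genes were lower and 3.91% higher. With library weights estimated from the data, 10 of 19 cytosolic synthetases were called lower and 3 higher in the same 6 libraries, where 17.7% of all genes were called lower and 17.0% higher. The 3 higher are no more than that share. All 3 siRPL13 libraries lay below all 3 siNC libraries for 5 cytosolic synthetases (GARS1, QARS1, TARS1, EPRS1 and IARS1) and 1 mitochondrial one (YARS2), where 6.90% of all genes did so. They lay above for 1 cytosolic synthetase (FARSA), where 6.92% of all genes did so. The median log2 difference was -0.12 over the cytosolic synthetases and -0.01 over the mitochondrial ones, against 0.00 over all genes.

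In the 5-library comparison, 9 of 19 cytosolic synthetases fell, where 10.7% of all genes did, and 2 rose, where 8.42% of all genes did. The 9 were WARS1, GARS1, MARS1, AARS1, CARS1, YARS1, SARS1, QARS1 and TARS1, which charge tryptophan, glycine, methionine, alanine, cysteine, tyrosine, serine, glutamine and threonine. Those that rose were FARSA and FARSB, the alpha and beta subunits of the phenylalanine enzyme. Of 16 mitochondrial synthetases 0 fell and 0 rose. At an unadjusted p under 0.05 (limma), AARS2 was lower and CARS2 and NARS2 were higher, where 17.6% of all genes were lower and 15.8% higher, so neither count exceeded its share. Of the 3 scaffold genes AIMP1 rose and 0 fell. The median log2 difference was -0.11 over the cytosolic and 0.01 over the mitochondrial synthetases, beside 0.00 over all genes. With only 1 of the remaining siRPL13 libraries, 3 cytosolic synthetases were called lower and 0 higher, whichever was used. These were WARS1, GARS1 and MARS1 both times, where 0.92% of all genes were called lower and 0.665% higher without siRPL13 replicate 1 and 3.65% and 2.5% without siRPL13 replicate 2. The lone library is then assumed to vary as the siNC libraries do.

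**Figure D1:**
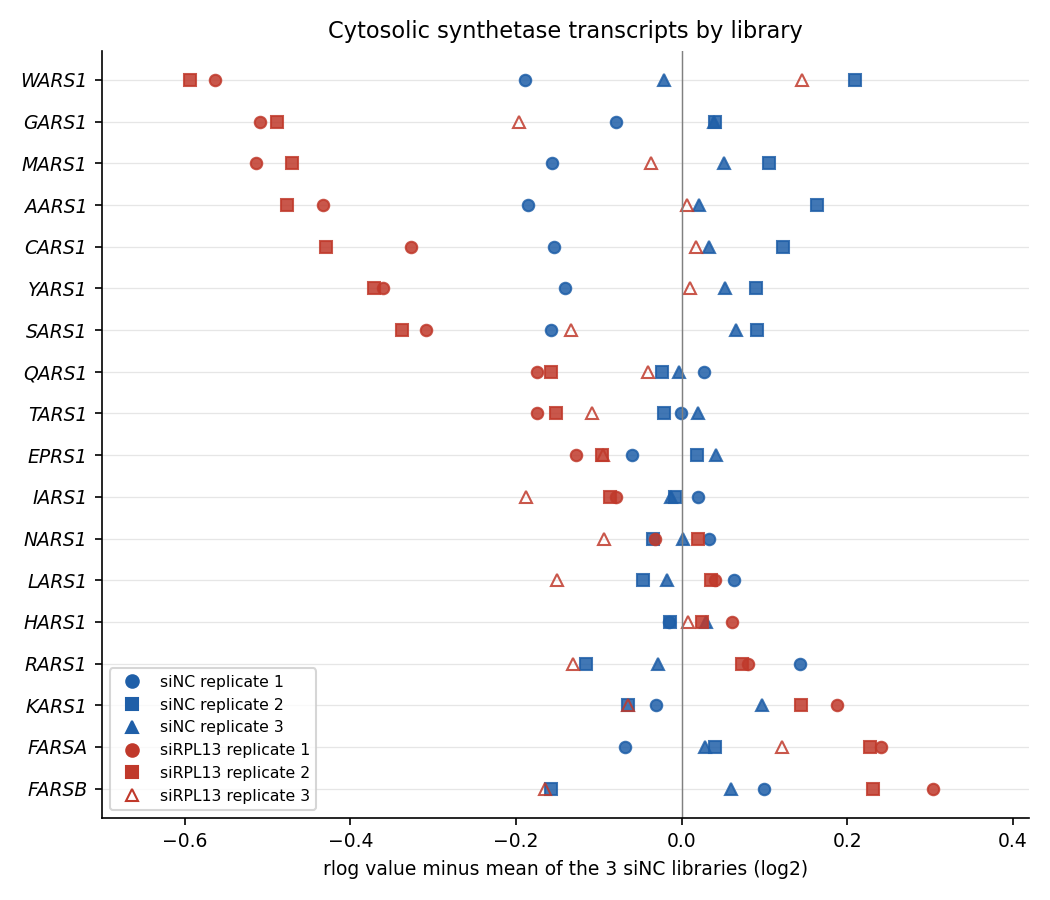
Each point is 1 library's rlog value, as a log2 difference from the siNC mean (horizontal axis), for 18 of the cytosolic synthetase genes, siNC in blue and siRPL13 in red, with the shape for the replicate number and an open triangle for the library labelled siRPL13 replicate 3. From WARS1 to TARS1 siRPL13 replicates 1 and 2 lie left of every siNC library, and for FARSA and FARSB they lie right of every siNC library.

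WARS1 (ENSG00000140105, GRCh38 chromosome 14, 100333788 to 100376805, minus strand), the tryptophan enzyme, had the largest difference of the members. Its rlog values were 11.49, 11.89 and 11.66 in siNC and 11.12, 11.09 and 11.83 in siRPL13. The library labelled siRPL13 replicate 3 lay within the siNC range and the other siRPL13 libraries below it. WARS1 fell by 0.58 ± 0.09 (SE, log2; limma, adjusted p 0.00251), to 66.9% of siNC when the rlog difference is converted from log2. Over all 6 libraries its difference was -0.34 ± 0.19 (adjusted p 0.609). Of its annotated exon bases, 10.6% are shared with genes on the opposite strand, and 1 annotated pseudogene carries its name.

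GARS1 (ENSG00000106105, chromosome 7, 30594681 to 30634033, plus strand) makes the glycine enzyme of both compartments. Its values were 13.31, 13.43 and 13.43 in siNC and 12.88, 12.90 and 13.19 in siRPL13. Here the library labelled siRPL13 replicate 3 was below every siNC library too, so the groups did not overlap over all 6. GARS1 fell by 0.50 ± 0.05 (SE, log2; adjusted p 0.000422), and with all 6 libraries the difference was -0.40 ± 0.09 (unadjusted p 0.00186, adjusted p 0.589).

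MARS1 (ENSG00000166986, chromosome 12, 57475445 to 57517569, plus strand) encodes the methionine enzyme, which charges both initiator and elongator tRNA. It read 12.53, 12.80 and 12.74 in siNC and 12.18, 12.22 and 12.65 in siRPL13. MARS1 fell by 0.49 ± 0.07 (SE, log2; adjusted p 0.00169), and the library labelled siRPL13 replicate 3 lay within the siNC range. Of its annotated exon bases, 13.3% also belong to other genes, DDIT3 on the opposite strand among them, and the sources used here do not give whether reads were counted by strand. DDIT3 itself had a difference of 0.02 ± 0.11 (adjusted p 0.927).

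AARS1 (ENSG00000090861, chromosome 16, 70252295 to 70289543, minus strand), the alanine enzyme, had values of 14.27, 14.62 and 14.47 in siNC and 14.02, 13.98 and 14.46 in siRPL13. CARS1, the cysteine enzyme, had values of 10.87, 11.15 and 11.06 in siNC and 10.70, 10.60 and 11.04 in siRPL13. In both genes the library labelled siRPL13 replicate 3 sat within the siNC range, and siRPL13 replicates 1 and 2 sat below it. AARS1 fell by 0.45 ± 0.08 and CARS1 by 0.38 ± 0.08 (SE, log2; adjusted p 0.00485 and 0.00753).

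YARS1, the tyrosine enzyme, was at 12.77, 13.00 and 12.96 in siNC and at 12.55, 12.53 and 12.92 in siRPL13. SARS1, the serine enzyme, which also charges the selenocysteine tRNA, was at 12.98, 13.23 and 13.21 in siNC and at 12.83, 12.80 and 13.01 in siRPL13. Again only siRPL13 replicates 1 and 2 were below all siNC libraries. YARS1 fell by 0.37 ± 0.07 and SARS1 by 0.32 ± 0.07 (SE, log2; adjusted p 0.00453 and 0.0106). The log2 differences of QARS1, the glutamine enzyme, and TARS1, the threonine enzyme, were smaller at -0.17 ± 0.05 and -0.16 ± 0.05 (adjusted p 0.0323 and 0.0334). For these 2 genes the siNC libraries were close together (SD 0.03 and 0.02, n = 3). Their calls were lost with quantile scaling (adjusted p 0.0783 and 0.136), without a variance trend (0.0591 and 0.0615) and without siNC replicate 3 (0.0673 and 0.0833).

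In all of the first 7 of these genes, from WARS1 to SARS1, siNC replicate 1 was the lowest siNC library. It lay below the mean of siNC replicates 2 and 3 by a log2 difference between -0.12 (GARS1) and -0.28 (WARS1). The spread within siNC was thus up to 0.20 (SD, n = 3, WARS1), and the siRPL13 replicates 1 and 2 lay outside it for each of the 7.

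FARSA (ENSG00000179115, chromosome 19, 12922479 to 12934037, minus strand) and FARSB (ENSG00000116120, chromosome 2, 222570536 to 222656337, minus strand) moved the other way. FARSA, the catalytic subunit, stood at 12.30, 12.41 and 12.39 in siNC and 12.61, 12.60 and 12.49 in siRPL13, with every siRPL13 library above every siNC library. FARSB stood at 11.53, 11.27 and 11.49 in siNC and 11.73, 11.66 and 11.26 in siRPL13, with the library labelled siRPL13 replicate 3 below all siNC libraries and the other siRPL13 libraries above them. FARSA rose by 0.23 ± 0.05 and FARSB by 0.27 ± 0.07 (SE, log2; adjusted p 0.0110 and 0.0285). FARSB did not pass without a variance trend (adjusted p 0.0515), and its difference over 6 libraries was 0.12 ± 0.12.

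The other 8 cytosolic synthetases did not pass. KARS1, the lysine enzyme of both compartments, was at 12.032, 11.998 and 12.160 in siNC and 12.251, 12.207 and 11.998 in siRPL13, with a log2 difference of 0.17 ± 0.06 (adjusted p 0.0670). Its siRPL13 replicates 1 and 2 were above all siNC libraries, and the library labelled siRPL13 replicate 3 was at the lower edge of siNC. With quantile scaling KARS1 passed (0.20, adjusted p 0.0396). RARS1 (arginine) had a difference of 0.08 ± 0.07, HARS1 (histidine) of 0.04 ± 0.05 and LARS1 (leucine) of 0.04 ± 0.05. For NARS1 (asparagine) it was -0.01 ± 0.05, for IARS1 (isoleucine) -0.08 ± 0.05 and for EPRS1 (glutamate and proline) -0.11 ± 0.05 (adjusted p for these 6 between 0.149 and 0.945). Without siNC replicate 1, RARS1 (0.15, adjusted p 0.0453) was called higher and EPRS1 (-0.14, adjusted p 0.0352) lower. RARS1 in siNC replicate 1 lay 0.21 above the mean of the other siNC libraries.

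The position of siRPL13 replicate 3 differed between members. It lay within the siNC range for WARS1, MARS1, AARS1, CARS1, YARS1 and SARS1, and below it for GARS1, QARS1 and TARS1. Of all 19 cytosolic synthetases it was below the range for 10, within for 8 and above for 1; of the 16 mitochondrial ones these counts were 7, 5 and 4. Over all genes tested the shares were 27.9% below, 42.7% within and 29.4% above.

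The cytosolic enzymes were also grouped by membership of the multi-synthetase complex and by catalytic fold. Of the 8 synthetases in the multi-synthetase complex (among them EPRS1, IARS1, KARS1, LARS1, MARS1, QARS1 and RARS1), 2 fell (MARS1 and QARS1) and 0 rose, where 10.7% of all genes fell and 8.42% rose. At an unadjusted p under 0.05 (limma), 3 of the 8 were lower and 1 higher, where 17.6% and 15.8% of all genes were. Their median log2 difference was -0.02. Of the 11 outside it, 7 fell and 2 rose, with a median of -0.32. By catalytic fold, 5 of 8 class I enzymes and 4 of 10 class II enzymes or subunits fell, with medians of -0.27 and 0.02; both that rose were class II, and EPRS1, which joins the classes, was left out of that count. These groups were compared by counts and medians only, and the difference between them was not tested.

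Of the scaffold genes only AIMP1 passed in the 5-library comparison. AIMP1, which binds tRNA and is also secreted as a cytokine precursor, was at 9.93, 9.98 and 10.03 in siNC and at 10.22, 10.30 and 9.91 in siRPL13. Replicates 1 and 2 of siRPL13 were above all siNC libraries and the library labelled siRPL13 replicate 3 was below them. AIMP1 rose by 0.28 ± 0.06 (SE, log2; adjusted p 0.00909) and did not pass without siRPL13 replicate 1 (adjusted p 0.0859) or without siRPL13 replicate 2 (0.127). Of its exon bases 11.6% are shared with TBCK on the opposite strand, and 2 annotated pseudogenes carry its name. AIMP2 read 10.17, 10.25 and 10.27 in siNC and 10.31, 10.23 and 10.27 in siRPL13, a difference of 0.04 ± 0.06. EEF1E1 read 8.55, 8.50 and 8.78 in siNC and 8.56, 8.62 and 8.50 in siRPL13, a difference of -0.02 ± 0.09. In both of these the groups overlapped. Of the exon bases of AIMP2, 28.9% are shared with EIF2AK1 on the opposite strand. For EEF1E1, 18.7% are shared with another annotated gene on the same strand.

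Sequence upstream of the cytosolic genes was searched because ATF4 acts through a short element. RefSeq windows (GRCh38.p14) of 300 bases, 250 before and 50 from each annotated start on, existed for 33 of the 38 members. The core letters TGATGNAA, searched on both strands, were in the windows of 7 of 16 cytosolic synthetases (43.8%), 1 of 14 mitochondrial synthetases (7.14%, YARS2) and 0 of 3 scaffold genes. Among all genes with a window the share was 4.46%, and among the genes tested it was 2.78%. Of the 7 cytosolic genes, AARS1, CARS1, GARS1, MARS1 and TARS1 fell, whereas IARS1 and NARS1 did not pass. QARS1, SARS1 and WARS1 fell and had no match in these windows; no window was found for YARS1 or LARS1. A match is a description of letters and not a shown binding site, and its bearing on the differences was not tested.

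The matches are shown with 30 bases before and 8 after them, in the direction of the gene, with the matched letters in capitals. Positions are counted from the annotated start as 0. The first 5 belong to genes that fell and the last 2 to genes that did not pass.
AARS1, chr16:70289678-70289723, minus strand, match from -187 to -180: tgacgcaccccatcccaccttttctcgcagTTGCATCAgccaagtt
CARS1, chr11:3057410-3057455, minus strand, match from -2 to 5: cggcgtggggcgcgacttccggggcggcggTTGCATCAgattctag
GARS1, chr7:30594815-30594860, plus strand, match from -33 to -26: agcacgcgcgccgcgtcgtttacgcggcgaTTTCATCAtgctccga
MARS1, chr12:57488034-57488079, plus strand, match from -4 to 3: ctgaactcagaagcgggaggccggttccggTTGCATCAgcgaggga
TARS1, chr5:33440937-33440982, plus strand, match from 2 to 9: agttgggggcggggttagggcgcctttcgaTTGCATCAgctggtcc
IARS1, chr9:92293695-92293740, minus strand, match from -13 to -6: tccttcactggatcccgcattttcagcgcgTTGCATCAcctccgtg
NARS1, chr18:57621807-57621852, minus strand, match from 14 to 21: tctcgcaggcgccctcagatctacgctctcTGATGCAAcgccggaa

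In 5 of these 7 genes the same 8 letters TTGCATCA lay on the coding strand within 13 bases before to 9 after the start, or, in AARS1, farther upstream at -187. NARS1 carried the reverse complement, TGATGCAA, just inside its first exon. GARS1 carried TTTCATCA.

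WARS1 is also known as an interferon-induced gene, so its windows were searched for the core of the interferon-stimulated response element, GAAANNGAAA, on both strands. It was present in 1 of 16 cytosolic synthetases (WARS1), 1 of 14 mitochondrial ones (EARS2) and 4.38% of all genes with a window. The WARS1 match is shown because no other cytosolic member had one.
WARS1, chr14:100375385-100375432, minus strand, match from -55 to -46: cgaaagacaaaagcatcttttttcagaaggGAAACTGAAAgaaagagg

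Both companion programmes differed between the libraries as well. Of 32 targets of the integrated stress response outside the synthetases, 23 fell and 1 rose, where 10.7% of all genes fell and 8.42% rose. With all 6 libraries 0 of these targets passed in either direction. As log2 differences from the siNC mean, the medians of the stress response targets were -0.22, 0.13 and 0.06 in siNC and -0.50, -0.54 and -0.02 in siRPL13. The 11 cytosolic synthetases outside the complex had medians of -0.08, 0.04 and 0.03 in siNC and of -0.31, -0.34 and 0.01 in siRPL13. In these genes and in the stress response targets siNC replicate 1 was lowest of siNC. All 19 cytosolic synthetases had medians of -0.03, -0.01 and 0.03 in siNC and of -0.13, -0.10 and -0.09 in siRPL13. The 8 in the complex had medians of 0.02, -0.03 and -0.01 in siNC and of -0.02, -0.02 and -0.11 in siRPL13. ATF4 mRNA was at 13.13, 13.53 and 13.41 in siNC and at 13.01, 12.89 and 13.43 in siRPL13, and fell by 0.40 ± 0.09 (SE, log2; limma, adjusted p 0.0142). Of 30 interferon-stimulated genes 28 fell, where 10.7% of all genes did, and with all 6 libraries 0 passed. The medians of the interferon list were 0.19, 0.35 and -0.52 in siNC and -1.20, -0.77 and 0.76 in siRPL13. In siNC replicate 3, where the interferon list was lowest of siNC, WARS1 was at 11.66, between the other siNC libraries. Both the interferon list and WARS1 were highest of siNC in replicate 2 (WARS1 at 11.89). Both were highest of siRPL13 in the library labelled replicate 3 (WARS1 at 11.83). The same libraries were highest for GARS1, MARS1, AARS1, CARS1, YARS1 and SARS1 and for the median of the stress response targets. This ranking was therefore not particular to WARS1 or to the interferon list. The part of either companion list in the values of the synthetases was not tested. Both companion lists were chosen with earlier results of these data known.

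**Figure D2:**
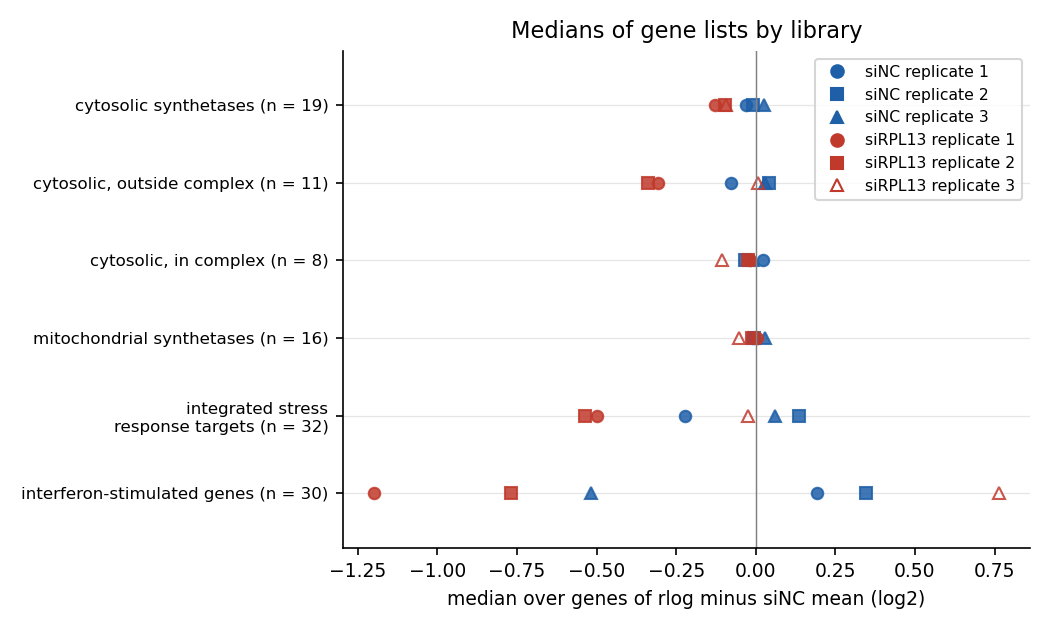
Median over the genes of 6 lists of the rlog value minus the siNC mean (horizontal axis, log2), 1 point per library, siNC in blue, siRPL13 in red, open triangle for the library labelled siRPL13 replicate 3. The cytosolic synthetases outside the complex lie at -0.31 and -0.34 in siRPL13 replicates 1 and 2. All 19 cytosolic synthetases lie between -0.13 and -0.09 in the 3 siRPL13 libraries, and the mitochondrial synthetases between -0.05 and 0.03 in all 6 libraries.

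The mitochondrial synthetases varied less. Their log2 differences in the 5-library comparison ran from -0.14 (AARS2) to 0.18 (CARS2), against -0.58 (WARS1) to 0.27 (FARSB) for the cytosolic enzymes. The SE of a difference was of similar size, from 0.05 (SARS2) to 0.09 (PARS2) for mitochondrial and from 0.05 (IARS1) to 0.09 (WARS1) for cytosolic genes. Their medians were -0.01, -0.01 and 0.03 in siNC and 0.00, -0.01 and -0.05 in siRPL13. The cytosolic median minus the mitochondrial median was -0.02, 0.00 and 0.00 in the siNC libraries and -0.13, -0.08 and -0.04 in the siRPL13 libraries.

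CARS2, the mitochondrial cysteine enzyme, was at 10.83, 10.92 and 11.02 in siNC and at 11.14, 11.08 and 10.80 in siRPL13. Its difference was 0.18 ± 0.06 (SE, log2; limma, adjusted p 0.0660). NARS2, the asparagine enzyme, was at 9.61, 9.56 and 9.65 in siNC and 9.82, 9.70 and 9.56 in siRPL13, with a difference of 0.16 ± 0.06 (adjusted p 0.109). In both, siRPL13 replicates 1 and 2 were above every siNC library and the library labelled siRPL13 replicate 3 was below every one. EARS2, the glutamate enzyme, was at 10.23, 10.32 and 10.30 in siNC and 10.39, 10.40 and 10.28 in siRPL13, a difference of 0.11 ± 0.06 (adjusted p 0.177).

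AARS2, the alanine enzyme, was at 10.17, 10.18 and 10.21 in siNC and 10.01, 10.08 and 10.30 in siRPL13, with a difference of -0.14 ± 0.06 (SE, log2; adjusted p 0.0976). The library labelled siRPL13 replicate 3 was above all siNC libraries and the other siRPL13 libraries were below them. RARS2, the arginine enzyme, was at 10.25, 9.93 and 10.16 in siNC and 9.95, 10.02 and 9.93 in siRPL13, and the groups overlapped (-0.13 ± 0.09, adjusted p 0.317). Without siNC replicate 2, RARS2 was called lower (-0.22, adjusted p 0.0385), and without siNC replicate 3 CARS2 was called higher (0.23, adjusted p 0.0331).

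The remaining mitochondrial enzymes had differences between -0.10 and 0.07. YARS2 was at -0.10 ± 0.06, TARS2 at -0.08 ± 0.06, FARS2 at -0.04 ± 0.07, HARS2 at -0.03 ± 0.06 and LARS2 at -0.02 ± 0.05 (SE, log2). PARS2 at 0.02 ± 0.09, IARS2 at 0.05 ± 0.07 and MARS2 at 0.06 ± 0.08. WARS2, the mitochondrial tryptophan enzyme, stood at 11.19, 11 and 11.04 in siNC and 11.15, 11.14 and 10.92 in siRPL13, a difference of 0.07 ± 0.06 (adjusted p 0.458), with overlapping groups. SARS2 stood at only 3.38 to 3.49 in all 6 libraries; 57% of its annotated exon bases are shared with other genes, so its level is uncertain and its difference of 0.00 ± 0.05 says little.

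**Figure D3:**
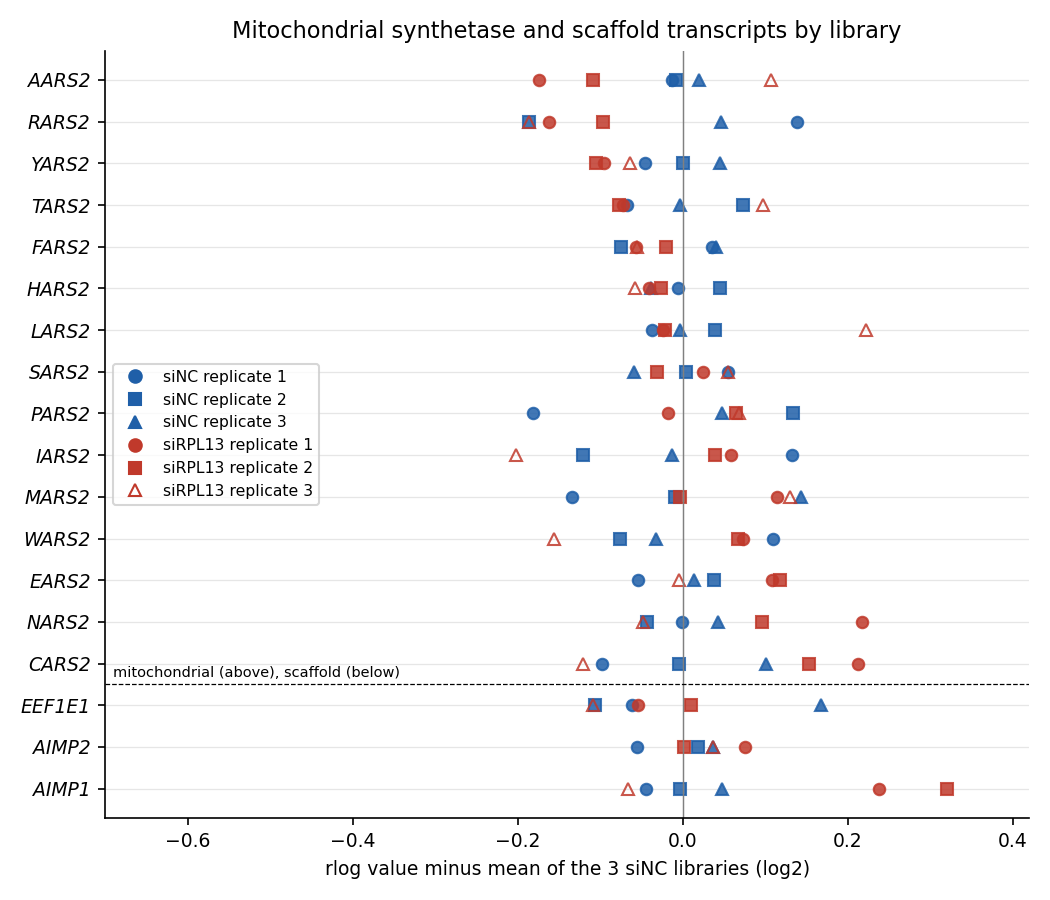
The same plot for 15 of the mitochondrial synthetase genes (above the dashed line) and the 3 scaffold genes (below it), as rlog value minus the siNC mean (log2), 1 point per library. Of the 45 siRPL13 points of these mitochondrial genes, 21 lie within the siNC range of their gene, and AIMP1 in siRPL13 replicates 1 and 2 stands to the right of all siNC libraries.

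Pairing the enzymes by amino acid put the contrast side by side in 17 pairs, with EPRS1 and FARS2 each used in 2. For tryptophan, WARS1 had a log2 difference of -0.58 and WARS2 of 0.07. For methionine MARS1 had -0.49 and MARS2 0.06, and for cysteine CARS1 had -0.38 and CARS2 0.18. For alanine AARS1 (-0.45) and AARS2 (-0.14) had the same sign, as did the tyrosine enzymes YARS1 (-0.37) and YARS2 (-0.10). The threonine enzymes TARS1 (-0.16) and TARS2 (-0.08) also shared a sign. For serine SARS1 had -0.32 and SARS2 0.00. For phenylalanine the cytosolic subunits were at 0.23 and 0.27 and the mitochondrial FARS2 at -0.04. No test was made of the difference within a pair.

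**Figure D4:**
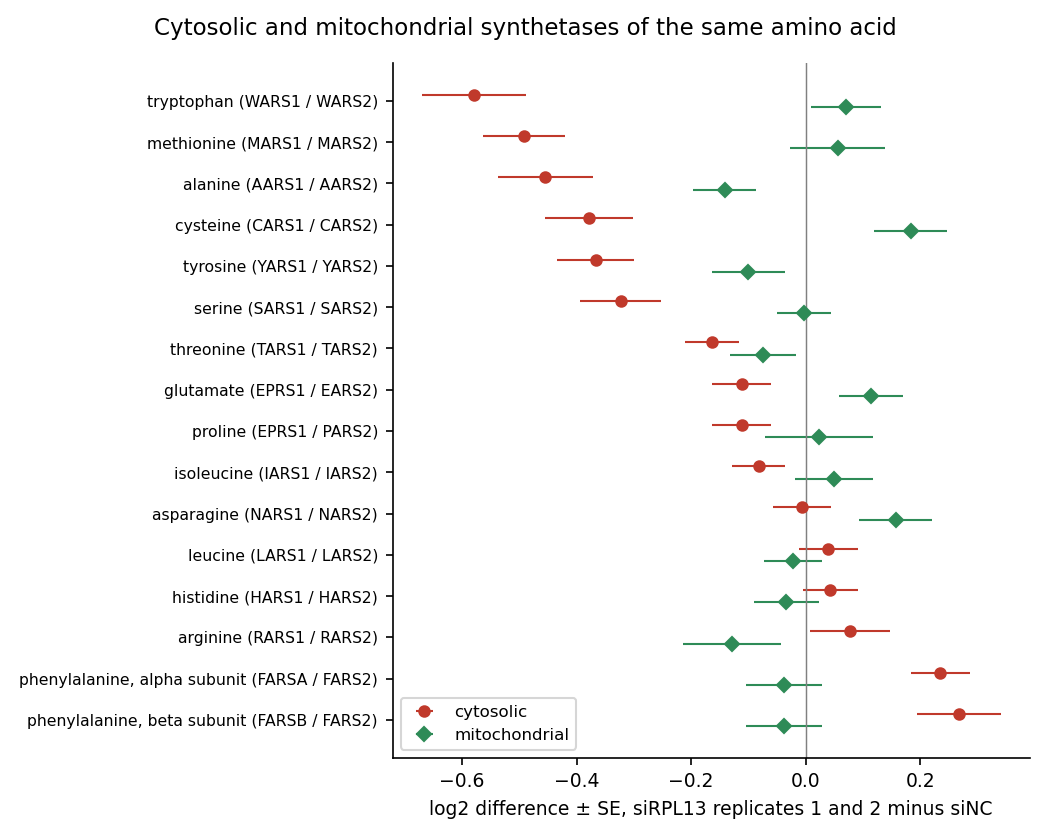
Log2 difference ± SE (siRPL13 replicates 1 and 2 minus the 3 siNC libraries, horizontal axis) of the cytosolic (red circles) and mitochondrial (green diamonds) synthetase of an amino acid in 16 pairs, ordered by the cytosolic value. The cytosolic values run from -0.58 (WARS1) to 0.27 (FARSB), and the mitochondrial ones lie between -0.14 and 0.18.

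Levels were compared between genes per length, as the mean siNC rlog value minus log2 of the annotated exon length in kb. That length joins all exons annotated for a gene and is not the length of a single transcript. On this scale the cytosolic synthetases had a median of 9.87, from 7.70 (CARS1) to 12.28 (AARS1). The mitochondrial ones had a median of 8.01, or 8.08 without SARS2, with a highest value of 10.18 (IARS2). The cytosolic enzyme was at the higher level per kb in 15 of 17 pairs, or 14 without the SARS1 and SARS2 pair. The exceptions were isoleucine (IARS1 9.59, IARS2 10.18) and tryptophan (WARS1 9.01, WARS2 9.13). Both exceptions depend on the annotated lengths. Before division by length, the siNC means were higher for IARS1 (12.48) than IARS2 (12.24) and for WARS1 (11.68) than WARS2 (11.08). AARS1, GARS1 and SARS1, the members with the highest level per kb along with FARSA, were at 12.28, 11.34 and 11.20 and all fell, while FARSA at 11.08 rose.

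**Figure D5:**
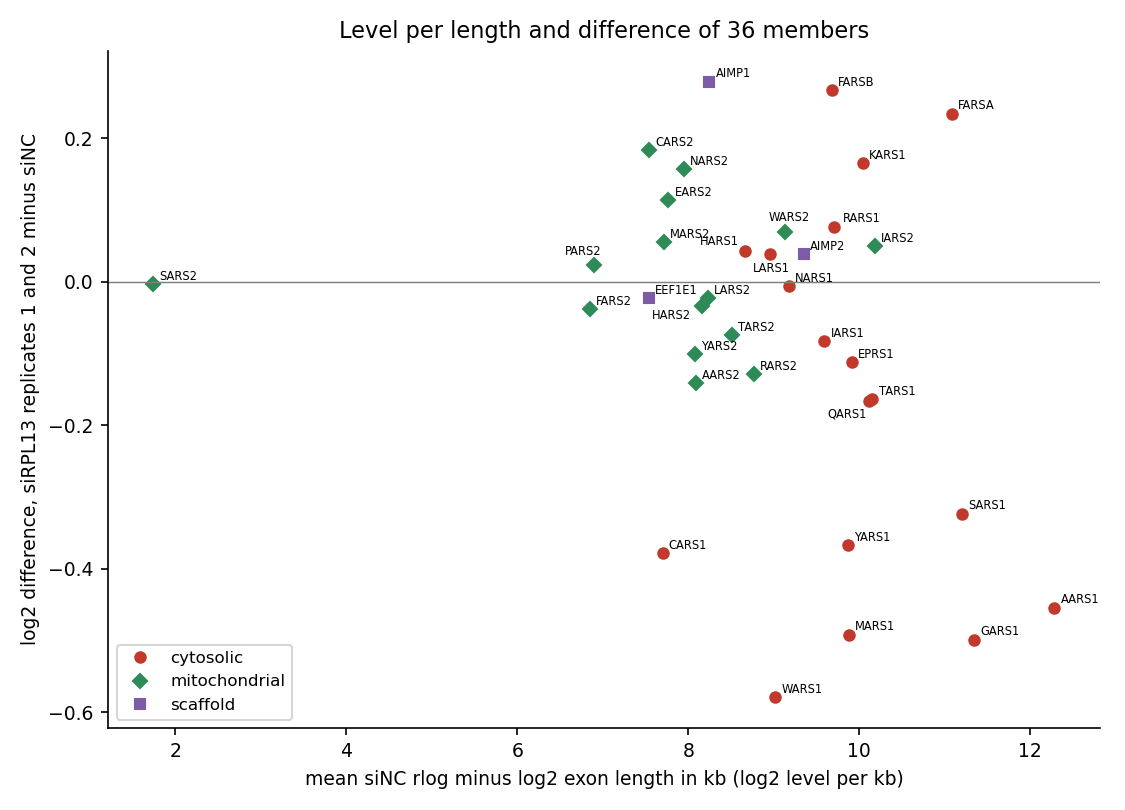
Level per length in siNC (horizontal axis, mean rlog minus log2 exon length in kb) against the log2 difference of siRPL13 replicates 1 and 2 from siNC (vertical axis), 1 point for each of 36 genes, cytosolic in red, mitochondrial in green, scaffold in purple. The genes that fell spread from CARS1 at 7.70 to AARS1 at 12.28, and SARS2 stands apart at 1.74.

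Other genes of tRNA charging and supply were read from a list of 49 chosen by function, of which 47 were tested. Of these 4 rose and 2 fell, which for the rises is near and for the falls below the shares over all genes (8.42% and 10.7%), and the median log2 difference was 0.02. XPOT, the exporter of tRNA from the nucleus, was at 12.33, 12.35 and 12.34 in siNC and 12.04, 12.02 and 12.15 in siRPL13, so all siRPL13 libraries were below all siNC libraries. XPOT fell by 0.31 ± 0.05 (SE, log2; limma, adjusted p 0.00197), and over 6 libraries its difference was -0.27 ± 0.06 (unadjusted p 0.00132, adjusted p 0.589). TRMU, which thiolates mitochondrial tRNA, also fell (-0.25 ± 0.06).

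LAGE3, a subunit of the complex that makes a modified adenosine next to the anticodon, was at 11.07, 11.15 and 11.09 in siNC and 11.44, 11.40 and 11.10 in siRPL13, and rose by 0.32 ± 0.05 (SE, log2). EEF1A1, which carries charged tRNA to the ribosome, was at 17.72, 17.57 and 17.73 in siNC and 18.02, 17.94 and 17.33 in siRPL13, and rose by 0.31 ± 0.07. QRSL1, the subunit of the amidotransferase that makes mitochondrial glutaminyl-tRNA, was at 9.62, 9.56 and 9.64 in siNC and 9.91, 9.83 and 9.63 in siRPL13, and rose by 0.26 ± 0.06. TUFM, the mitochondrial elongation factor, rose by 0.16 ± 0.05. For LAGE3 and QRSL1 the library labelled siRPL13 replicate 3 lay within the siNC range, and for EEF1A1 it lay below it.

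Among 13 genes that sense uncharged tRNA or act at eIF2, 2 fell (ATF4 and EIF2AK2) and 2 rose, counts near the shares over all genes (10.7% and 8.42%). EIF2AK4, the kinase that binds uncharged tRNA, rose by 0.20 ± 0.06 (SE, log2; limma, adjusted p 0.0466) and EIF2B4, a subunit of the eIF2 exchange factor, by 0.27 ± 0.05. EIF2AK2, the kinase PKR, which is itself interferon-stimulated, fell by 0.48 ± 0.12. GCN1, which works with EIF2AK4, had a difference of -0.10 ± 0.05 and did not pass.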

How the data were processed

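The authors deposited rlog values (log2 scale), named so in the file name, 1 per Ensembl gene and library. Per the submitters' processing notes, Trimmomatic 0.33, TopHat, HTSeq 0.6.1p1, DESeq2 and build GRCh38.p7 were named, with no settings. The rlog transform corrects for library size and shrinks each gene to its mean, which understates differences of low genes. Depth is unknown, so no count model was run.

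Symbols came from a table of current gene names and positions, exon lengths and overlaps from GENCODE 29. The 15327 genes whose mean rlog was 3 or more (all 38 members included) were fitted with limma 3.58.1 in R 4.3.3 (lmFit, eBayes with a trend, two-sided, Benjamini-Hochberg over all genes, threshold 0.05), checked on simulated data. These p-values reflect only the spread between libraries, since no label tells how separate the cultures were. Figures used matplotlib 3.10.9.

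The members and lists were chosen with earlier results of these data known. Values in every library are given for the 8 cytosolic and 5 mitochondrial synthetases with the largest differences, the scaffold genes, GARS1, KARS1, WARS1, WARS2, RPL13, ATF4 and the 4 largest of the other charging genes; FARSA, TRMU, TUFM, DDIT3, EIF2AK2, EIF2AK4, EIF2B4 and GCN1 were added after their values were seen. Alternatives were other filters, scalings, variance models, library weights, a replicate block and leaving out each library. Of the genes this covers, 3 are counted in the totals and not reported by name here. Protein sequences were not used here.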

Additional observations from a re-analysis of the deposited data

How the results depend on the processing

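With all 6 libraries, estimated library weights called 10 of 19 cytosolic synthetases lower and 3 higher, beside 17.7% and 17.0% of all genes. Leaving out each library in turn gave 0 to 9 lower and 0 to 2 higher, above 0 only without the library labelled siRPL13 replicate 3. Quantile scaling gave a cytosolic median of -0.0814, and leave-one-out gave cytosolic medians of -0.124 to -0.0990 and mitochondrial medians of -0.0163 to 0.0124. In the 5-library comparison, 1 cytosolic synthetase was called higher without a variance trend, and quantile scaling gave a cytosolic median of -0.0749. Leaving out each library gave 3 to 10 cytosolic synthetases lower and 0 to 4 higher, 0 to 1 mitochondrial ones lower and 0 to 1 higher, cytosolic medians of -0.142 to -0.0913 and mitochondrial medians of -0.0162 to 0.0126. Library weights called 1 mitochondrial synthetase lower (AARS2).

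Deviations of same-numbered libraries correlated at 0.08, -0.43 and -0.33. Against each siNC library, siRPL13 replicates 1 and 2 had the same sign and the library labelled siRPL13 replicate 3 the opposite one. The correlations thus follow that library, and they cannot show whether the replicate numbers pair the libraries. With the replicate block, 1 mitochondrial synthetase was called higher (CARS2) in the 5-library comparison, QARS1 and TARS1 lost their calls (adjusted p 0.0874 and 0.126), KARS1 passed (0.0217), and with all 6 libraries 0 members passed. In the 5-library comparison siNC replicate 3 was alone in its block. The block therefore gave the same differences as leaving out siNC replicate 3 and is not a separate alternative for them. The cytosolic minus mitochondrial median was -0.110 in siRPL13 replicate 1 under a filter at a mean rlog of 5, and -0.103 and -0.0515 in siRPL13 replicates 1 and 2 with quantile scaling. It was -0.0053 in siNC replicate 1 without GARS1 and KARS1. When each siNC library was left out it ran from -0.162 to -0.108 in siRPL13 replicate 1, -0.111 to -0.0753 in siRPL13 replicate 2, -0.031 to 0.0124 in siNC replicate 1, -0.0124 to 0.0121 in siNC replicate 2 and -0.0121 to 0.031 in siNC replicate 3. Of the 12 members called, WARS1, GARS1 and MARS1 passed in every alternative of the 5-library comparison, and all 12 kept their sign in each. The causes of these shifts were not tested.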
